A study of Arabidopsis thaliana with 21 samples.

Results

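The transcripts of the mitochondrial genome of Arabidopsis thaliana were followed through 37 genes whose identifier starts with ATMG, the prefix of mitochondrial genes. The table of 25263 genes held 71 ATMG rows, and the 37 members were those whose value averaged at least 1 over the 20 distinct libraries. The members just inside that minimum were ATMG00830 at 1.20 and ATMG01020 at 1.34, and the rows just outside it were ATMG00570 at 0.992 and ATMG01410 at 0.895. The 34 rows left out summed to between 3.56 and 37.2 per library, which was 0.0650 to 0.386% of the ATMG total. Values are read counts per gene that the authors had divided by a size factor of each library, so they compare a gene between libraries and are not corrected for gene length.

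RNA came from whole, untreated 10-day-old seedlings in the Col-0 background, grown at 20 °C in 16 h of light and 8 h of dark. The lines labelled At1++ and At1+ over-expressed AtIPCS1, those labelled At2++ and At2+ over-expressed AtIPCS2, those labelled At3++ and At3+ over-expressed AtIPCS3, and the reference was untransformed Col-0, which carries its own copies of all 3 genes, as the lines do. These genes encode inositol phosphorylceramide synthase, an enzyme of sphingolipid synthesis in the Golgi, the double plus was meant to mark the stronger of 2 lines per gene, and each line is 1 transformed line, so a line and its transgene level cannot be told apart. Each group had 3 libraries, which table legends of the study call technical replicates, so p-values measure only the spread between these libraries, and replicates 1 and 2 of At3+ held identical values and were counted as 1 library.

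Libraries held 12733113 to 17210244 reads counted on genes, of which 2588 to 16556 fell on ATMG rows. The transcript of the introduced gene was high in its own lines, but its order went against the labels for 2 of the 3 genes. AtIPCS1 averaged 45370.1 ± 4194 in At1++ and 17726 ± 1095 in At1+, against 172 ± 6.51 in Col-0. AtIPCS2 averaged 12630.5 ± 475 in the libraries labelled At2++ and 22612 ± 600.5 in those labelled At2+, against 823 ± 29.7 in Col-0, and AtIPCS3 averaged 5802 ± 326 in those labelled At3++ and 11933 ± 1310.1 in those labelled At3+, against 57.7 ± 5.04 in Col-0. The labels follow a separate qPCR measurement of the study, which was not analysed here. The names At2++, At2+, At3++ and At3+ therefore stand below for libraries so labelled, and no direction from a lower to a higher transgene level is read from them. All 10 seed storage and oil body genes listed as seed markers were called higher in each of the 6 lines, with sums per library of 30720.4 to 34965 (At1++) and 1802 to 3048 (At1+) for lines over-expressing AtIPCS1, 2824 to 3092 (At2++) and 6114 to 7810.3 (At2+) for lines over-expressing AtIPCS2, and 13077 to 16330.1 (At3++) and 574 to 1044 (At3+) for lines over-expressing AtIPCS3, against 18.4 to 22.3 in Col-0.

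Plant mitochondria keep a genome of their own, which encodes ribosomal RNAs, transfer RNAs and a set of proteins of the respiratory chain, the ATP synthase, cytochrome c maturation and the mitochondrial ribosome, while most mitochondrial proteins come from nuclear genes. It is transcribed by phage-type RNA polymerases that the nucleus encodes. Its transcripts mostly lack a stable poly(A) tail, and tails that are added mark RNA for decay, so libraries made by a kit that selects poly(A) RNA, as here, sample this RNA poorly and report only the part of it that the kit retains.

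Chromosome 2 of this species carries a long insertion of mitochondrial DNA, and a read from a stretch present in both places cannot be assigned to one of them by its sequence. In the RefSeq sequence of the TAIR10.1 assembly, whose mitochondrial genome of 367808 bases may differ from the one used to make the counts, 65.1% of all 150-base windows, the read length of these libraries, also occurred in the nuclear genome, 6.91% were repeated within the mitochondrial genome and 34.4% were unique. Of the windows shared with the nucleus, 98.8% lay in 1 block, chr2:3239166-3509765. Among the protein-coding mitochondrial genes of RefSeq, 15 of 33 had no unique window and 7 of 33 had at least 95% unique windows. Unique windows were thus found for cox1, nad9 and atp4 (a core subunit of cytochrome c oxidase, a subunit of complex I and a subunit of the ATP synthase) along their whole length, and none for cob, cox3 or atp1 (cytochrome b, another cytochrome c oxidase subunit and the alpha subunit of the ATP synthase). All 3 ribosomal RNA genes, rrn26, rrn18 and rrn5, were unique over their whole length, rrn5 being shorter than a window.

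**Figure D1:**
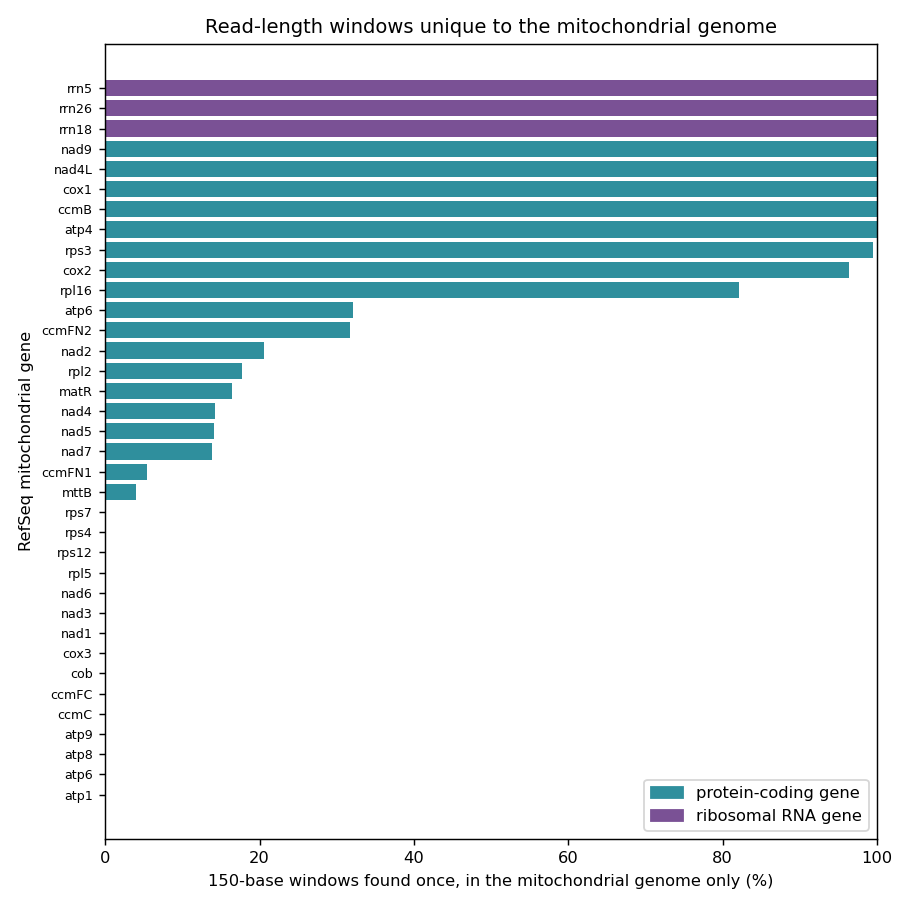
Share of 150-base windows (%, horizontal axis) that occur once in the RefSeq mitochondrial and nuclear sequences, for each mitochondrial gene of RefSeq (vertical axis). Genes such as cob and atp1 are at 0%, and genes such as cox1 and the 3 ribosomal RNA genes are at 100%.

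RefSeq names 7 of the members through a counterpart on chromosome 2, and they are named by that annotation here, while the other 30 are given by identifier alone. ATMG01320 corresponds to AT2G07689, annotated as NADH dehydrogenase 2B, part of complex I, and all 645 bases of that gene (chr2:3336109-3336753) matched the mitochondrial genome without a mismatch. ATMG00560 corresponds to AT2G07715, annotated as a nucleic acid-binding protein with an OB-fold, with 4 mismatches over 2565 bases, and the matching mitochondrial stretch overlaps rpl2, a gene for a ribosomal protein. ATMG00960 corresponds to AT2G07768, a cytochrome c assembly protein, with 1 gap over 572 aligned bases, in ccmFN2. ATMG01330 corresponds to AT2G07808, annotated as a pseudogene, with 1 mismatch over 389 bases. ATMG01090 corresponds to AT2G07777, annotated as ATP synthase 9, and ATMG00970 and ATMG01220 correspond to AT2G07676 and AT2G07798, annotated as unknown proteins. Of the 2150 bases of AT2G07777, 1275 aligned, at chrMT:65788-67062, whereas RefSeq places atp9 at chrMT:270961-271185. The stretches matched for ATMG01090, ATMG01320, ATMG01330, ATMG00970 and ATMG01220 overlap no protein-coding mitochondrial gene of RefSeq, so these names rest on the notes alone. Identity was 99.7 to 100% over the aligned bases of the 7 pairs. The annotation used here gives no coordinates for ATMG identifiers. The mitochondrial stretch taken for each member is therefore the best match of its chromosome 2 counterpart. The windows below, each as long as a read, show how little separates 3 of these pairs.
The first, of AT2G07689 (chr2:3336109-3336258) and the match taken for ATMG01320 (chrMT:95087-95236, minus strand), holds no difference. The second pair (chrMT:222017-222166, minus strand, and chr2:3411624-3411773) holds 2, and the third (chrMT:94248-94397, minus strand, and chr2:3336948-3337097) holds 1. Lines named by an ATMG identifier show those matches. Capitals mark the bases that differ.
ATMG01320 and AT2G07689: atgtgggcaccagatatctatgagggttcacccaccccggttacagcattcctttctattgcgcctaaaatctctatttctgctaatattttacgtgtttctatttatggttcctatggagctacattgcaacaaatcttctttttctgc
ATMG00560: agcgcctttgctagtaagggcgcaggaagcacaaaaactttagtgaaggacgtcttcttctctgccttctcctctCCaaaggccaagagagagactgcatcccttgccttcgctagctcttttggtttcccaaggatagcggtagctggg
AT2G07715: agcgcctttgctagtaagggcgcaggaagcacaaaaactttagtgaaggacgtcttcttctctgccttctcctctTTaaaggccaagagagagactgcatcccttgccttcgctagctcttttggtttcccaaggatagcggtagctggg
ATMG01330: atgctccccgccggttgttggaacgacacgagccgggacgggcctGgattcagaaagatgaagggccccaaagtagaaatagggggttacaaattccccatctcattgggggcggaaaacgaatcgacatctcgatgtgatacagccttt
AT2G07808: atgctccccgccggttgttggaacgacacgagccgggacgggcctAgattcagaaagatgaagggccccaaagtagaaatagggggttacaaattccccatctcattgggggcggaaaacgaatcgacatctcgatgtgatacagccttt
A read of the first window fits both genomes equally, and reads of the other windows are told apart by the marked bases alone. Values of these 7 members are therefore uncertain as to their source. The other 30 members were not aligned, so how much of them also occurs in the nuclear genome is not known here.

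ATMG rows made up a larger share of the summed values in 5 of the 6 lines than in Col-0, and the largest share in the libraries labelled At2+. The 71 ATMG rows took 0.130%, 0.113% and 0.102% of all values in the 3 At2+ libraries, against 0.0183%, 0.0296% and 0.0169% in the 3 Col-0 libraries. Every At2+ library thus lay above every other library of the series. Group means were 0.0472 ± 0.00695% (At1++) and 0.0533 ± 0.00797% (At1+) for lines over-expressing AtIPCS1, 0.0538 ± 0.00802% (At2++) and 0.115 ± 0.0142% (At2+) for lines over-expressing AtIPCS2, and 0.0481 ± 0.00624% (At3++) and 0.0226 ± 0.00233% (At3+) for lines over-expressing AtIPCS3, against 0.0216 ± 0.00698% in Col-0 (SD, n = 3, or 2 for At3+). Divided by the Col-0 mean, these were 2.18 (At1++) and 2.46 (At1+) for over-expressors of AtIPCS1, 2.49 (At2++) and 5.32 (At2+) for over-expressors of AtIPCS2, and 2.23 (At3++) and 1.04 (At3+) for over-expressors of AtIPCS3. In the 5 lines other than At3+ all libraries lay above all Col-0 libraries, with p = 0.1 in an exact two-sided permutation test of each line, the smallest p that 3 against 3 libraries allow, and 0.12 after Benjamini-Hochberg adjustment over the 6 lines. The 2 distinct At3+ libraries, at 0.0242% and 0.0209%, lay inside the range of Col-0, with p = 1 in the same exact test, which cannot go below 0.2 for 2 against 3. All 6 lines share the Col-0 libraries, so the 6 comparisons are not independent. Since the seedlings were sampled whole, a different make-up of cell types and a different RNA content per cell cannot be told apart. How much mitochondrial RNA the poly(A) selection retained in each library was not measured. The share is therefore one of counted reads and not of all RNA.

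**Figure D2:**
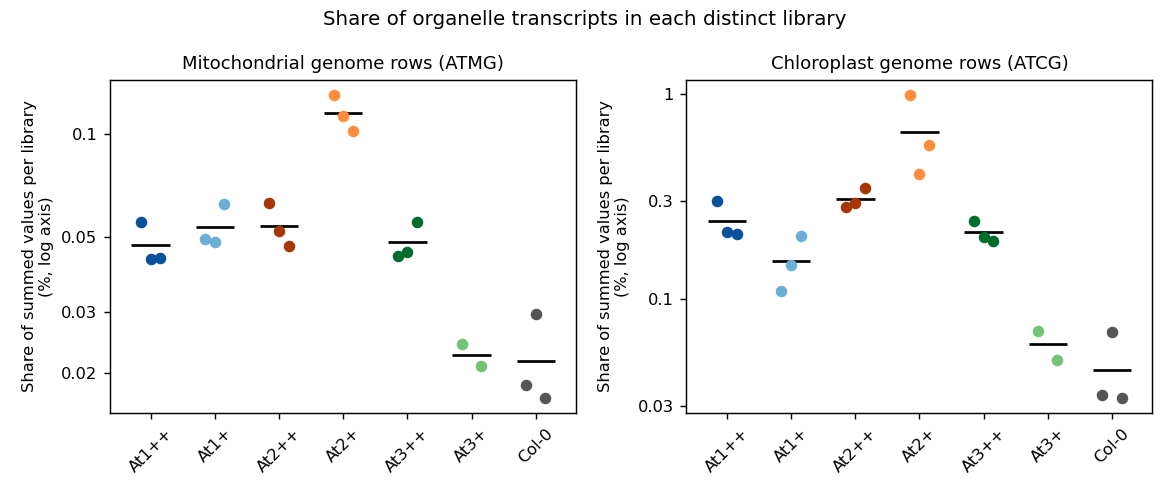
Share of each library's summed values on mitochondrial rows (ATMG, left) and chloroplast rows (ATCG, right), in % on a log axis; points are distinct libraries and bars group means. The At2+ libraries have the highest mitochondrial shares, and the At3+ libraries lie within the range of Col-0.

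Many genes of the chloroplast genome were called higher too (adjusted limma p under 0.05 and a log2 fold change of at least 1). Of its 92 tested genes (identifiers starting with ATCG), the number called higher than in Col-0, with the share of all genes beside it, was 76 (At1++; 4.06% of all genes) and 62 (At1+; 1.78% of all genes) for lines over-expressing AtIPCS1, 82 (At2++; 5.90% of all genes) and 90 (At2+; 4.76% of all genes) for lines over-expressing AtIPCS2, and 74 (At3++; 4.04% of all genes) and 10 (At3+; 0.594% of all genes) for lines over-expressing AtIPCS3, and 1 was called lower in each of At1+, At3++ and At3+. The summed ATMG value relative to the summed ATCG value, as a log2 ratio per library, had mean differences from Col-0 of -1.31 (At1++) and -0.46 (At1+) for over-expressors of AtIPCS1, -1.50 (At2++) and -1.39 (At2+) for over-expressors of AtIPCS2, and -1.11 (At3++) and -0.37 (At3+) for over-expressors of AtIPCS3. The groups did not overlap with Col-0 in any line except At1+, and the exact two-sided permutation tests gave p = 0.1 for At1++, At2++, At2+ and At3++ (0.15 after adjustment over the 6 lines) and 0.2 for At1+ and At3+ (0.2 after adjustment). The smallest p possible is 0.1 for 3 against 3 libraries and 0.2 for At3+, so this test could not go under 0.05 in any line. Within groups, the library with the highest ATMG share was also the one with the highest ATCG share in 5 of the 7 groups. Among genes outside the mitochondrial genome, the 5 whose log2 value followed the summed ATMG value most closely over the 20 distinct libraries were all of the chloroplast genome: ATCG00680 and ATCG00280 at Pearson r = 0.972, ATCG00340 at 0.967, and ATCG00330 and ATCG00720 at 0.965. These correlations describe libraries that share their groups and their size factors and carry no test.

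A few genes held nearly all of the signal. ATMG00020 alone took 56.6 to 62.1% of the ATMG total in the 20 distinct libraries, ATMG01390 took 23.5 to 31.5% and ATMG00030 took 4.31 to 6.98%, and these 3 together made up 86.7 to 95.1%. These are shares of summed reads, which longer genes gather more easily. Only 4 members averaged at least 100, 16 averaged at least 10, and 16 averaged under 5. The summed share above is therefore mainly a statement on 3 genes, and the genes are described one by one below. The annotation used here does not tell whether these 3 are ribosomal RNA genes, so the share cannot be read as one of protein-coding transcripts. A gene was called where the Benjamini-Hochberg adjusted p of limma's moderated test on log2(value + 1) was under 0.05 over 22222 genes and the log2 fold change was at least 1 in size, and log2 fold changes below are on that scale, which understates the change of low genes.

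A larger share of the 37 members than of all genes was called higher than in Col-0 in every line except At3+. The number of members, with the share of all genes called higher beside it, was 13 (At1++; 4.06% of all genes) and 11 (At1+; 1.78% of all genes) for lines over-expressing AtIPCS1, 14 (At2++; 5.90% of all genes) and 27 (At2+; 4.76% of all genes) for lines over-expressing AtIPCS2, and 14 (At3++; 4.04% of all genes) and 0 (At3+; 0.594% of all genes) for lines over-expressing AtIPCS3. The 27 in At2+ include ATMG00830 and ATMG01020, which average 0.623 and 0.940 over the 17 libraries of the other groups and so reached the minimum of 1 through the At2+ libraries, and 25 of the other 35 members were called. In the 5 lines other than At3+ no member was called lower, none was lower at an unadjusted limma p under 0.05, and DESeq2 and edgeR called 0 lower, whereas 5.02% (At1++), 1.96% (At1+), 4.91% (At2++), 2.69% (At2+) and 2.31% (At3++) of all genes were called lower. In At3+ no member was called in either direction (limma), 1 was higher and 2 were lower at an unadjusted p under 0.05, and DESeq2 and edgeR called 0, while 1.18% of all genes were called lower. The members' median log2 fold change was 0.92 (At1++) and 0.64 (At1+) for transformants of AtIPCS1, 0.77 (At2++) and 2.02 (At2+) for transformants of AtIPCS2, and 0.89 (At3++) and -0.15 (At3+) for transformants of AtIPCS3, and the median of all genes was between -0.02 and 0.01. Over the 35 members other than ATMG00830 and ATMG01020 the median in At2+ was 2.05.

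The number of members whose libraries all lay above all Col-0 libraries, with the share of all genes that did so beside it, was 19 (At1++; 25.4% of all genes) and 17 (At1+; 21.9% of all genes) for over-expressors of AtIPCS1, 17 (At2++; 28.5% of all genes) and 31 (At2+; 26.1% of all genes) for over-expressors of AtIPCS2, and 17 (At3++; 26.4% of all genes) and 0 (At3+; 20.6% of all genes) for over-expressors of AtIPCS3. Of the 31 in At2+, 29 were among the 35 members that did not need At2+ to reach the minimum. In At3+, 4 members lay wholly below Col-0, against 19.9% of all genes. Over the 7 groups together, 26 of 37 members differed by the moderated F-test of limma at an adjusted p under 0.05, and 72.6% of all genes did, so the members did not stand out by that measure.

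Calls were concentrated on the more abundant members. Of the 16 members that averaged at least 10, the number called higher was 11 (At1++) and 11 (At1+) for transformants of AtIPCS1, 10 (At2++) and 16 (At2+) for transformants of AtIPCS2, and 12 (At3++) and 0 (At3+) for transformants of AtIPCS3, and the 16 in At2+ include ATMG00516 and ATMG01120, which average 8.48 and 7.91 over the other 17 libraries. Of the 21 members under that mean it was 2 (At1++) and 0 (At1+) for lines over-expressing AtIPCS1, 4 (At2++) and 11 (At2+) for lines over-expressing AtIPCS2, and 2 (At3++) and 0 (At3+) for lines over-expressing AtIPCS3. Reads were few in 12 of the members, with at most 3 in every Col-0 library, and 7 of these 12 were called in a line. By gene, 8 members were called in all 5 lines other than At3+, 3 in 4 lines, 5 in 3 lines, 12 in 1 line and 9 in none. How many of all genes were called in as many lines was not counted, nor was the rate among genes of like abundance. Whether the members stood out by these counts was therefore not tested. Calls in different lines are also not independent, because the Col-0 libraries are shared. Group means were highest in At2+ for 32 of the 37 members, or for 30 of the 35 without ATMG00830 and ATMG01020.

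**Figure D3:**
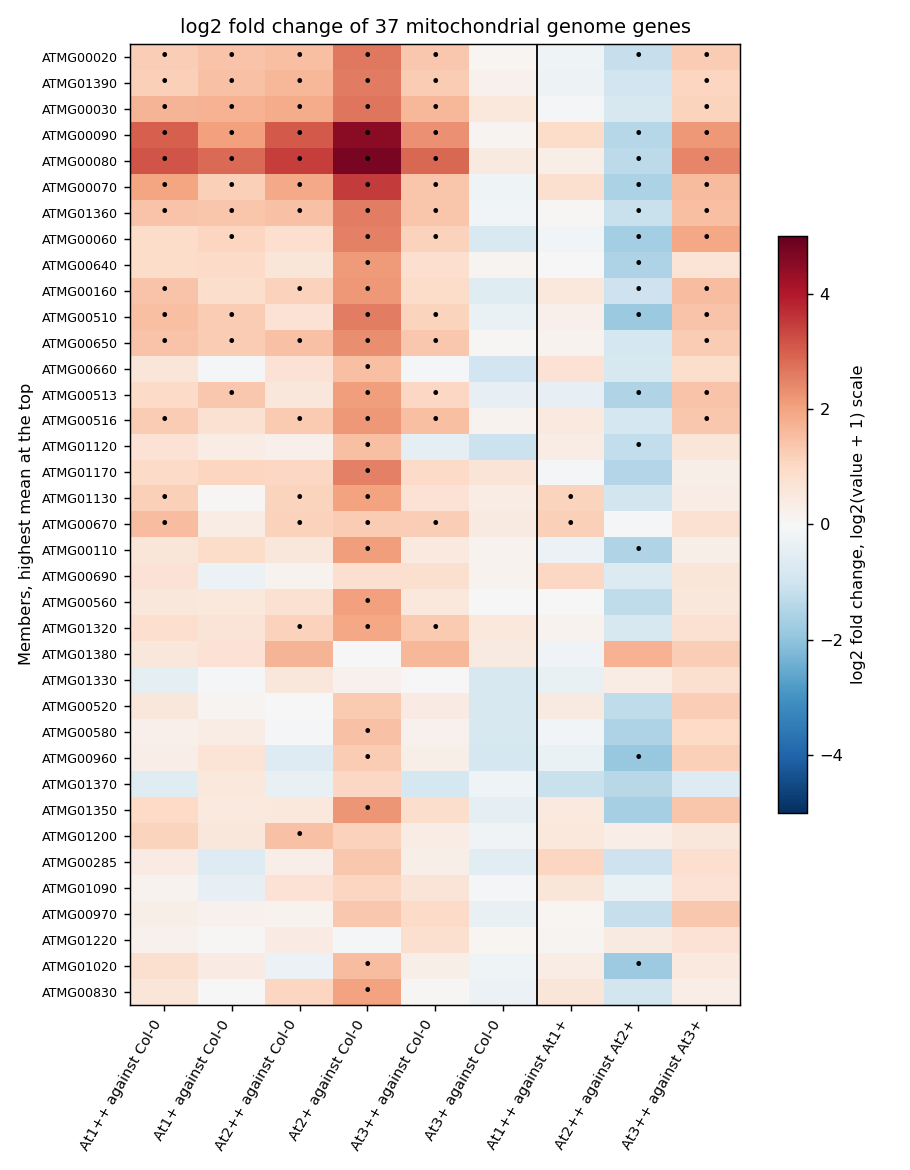
Log2 fold change against Col-0 (colour scale; limma on log2(value + 1)) of the 37 members (rows, highest mean at the top) in the 6 lines against Col-0 and, right of the black line, between the lines of each introduced gene (columns); dots mark calls. The column of At2+ against Col-0 holds 27 dots and that of At3+ none.

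The 8 members called in all 5 lines were ATMG00020, ATMG00030, ATMG00070, ATMG00080, ATMG00090, ATMG00650, ATMG01360 and ATMG01390, and each had its largest difference in At2+. For ATMG00070 the call in At1+ was lost in DESeq2, in edgeR, without Col-0 replicate 1 and without At1+ replicate 3, with log2 fold changes of 0.99 to 1.25, while the other 7 kept all 5 calls in every alternative run on them. ATMG00020, the most abundant, had values of 4765, 3577 and 3717 (At1++) and 4368, 4065 and 5569 (At1+) for over-expressors of AtIPCS1, 5554, 5027 and 4256 (At2++) and 12311, 10324 and 9896 (At2+) for over-expressors of AtIPCS2, and 3895, 4268 and 5099 (At3++) and 1966 and 1725 (At3+) for over-expressors of AtIPCS3, against 1542, 2361 and 1388 in Col-0. Every library of the 5 lines other than At3+ exceeded every Col-0 library, and the 3 At2+ libraries exceeded all others. Its log2 fold change was 2.65 in At2+ (SE 0.15, limma adjusted p = 6.28e-13), 1.52 in At2++, 1.43 in At1+, 1.36 in At3++ and 1.22 in At1++, and in At3+ it was 0.10 with an adjusted p of 0.815.

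ATMG01390 followed the same order of groups at a lower level, with 2116, 1580.00 and 1868 (At1++) and 2078, 1924 and 2612 (At1+) for over-expressors of AtIPCS1, 2979, 2515 and 2109 (At2++) and 4989, 5411 and 4212 (At2+) for over-expressors of AtIPCS2, and 1647, 1752 and 2538 (At3++) and 1063 and 814 (At3+) for over-expressors of AtIPCS3, against 658, 1284 and 609 in Col-0. Col-0 replicate 2 stood apart from the other Col-0 libraries here, as it did in the summed share, and still lay below every library of the 5 lines other than At3+. The log2 fold change was 2.59 in At2+ (SE 0.20, limma adjusted p = 1.28e-10) and between 1.20 and 1.64 in the other 4 lines that were called.

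ATMG00030 had 465, 425 and 404 (At1++) and 453, 373 and 515 (At1+) for over-expressors of AtIPCS1, 578, 454 and 433 (At2++) and 1090.5, 749.8 and 762 (At2+) for over-expressors of AtIPCS2, and 438, 382 and 439.8 (At3++) and 214 and 177 (At3+) for over-expressors of AtIPCS3, against 112, 206 and 102 in Col-0. It was called at 2.67 in At2+ (SE 0.18, limma adjusted p = 1.26e-11) and at 1.65 to 1.86 in At1++, At1+, At2++ and At3++. In At3+ the difference of 0.55 did not pass the test (limma adjusted p = 0.0978), and the 2 At3+ libraries overlapped with Col-0.

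**Figure D4:**
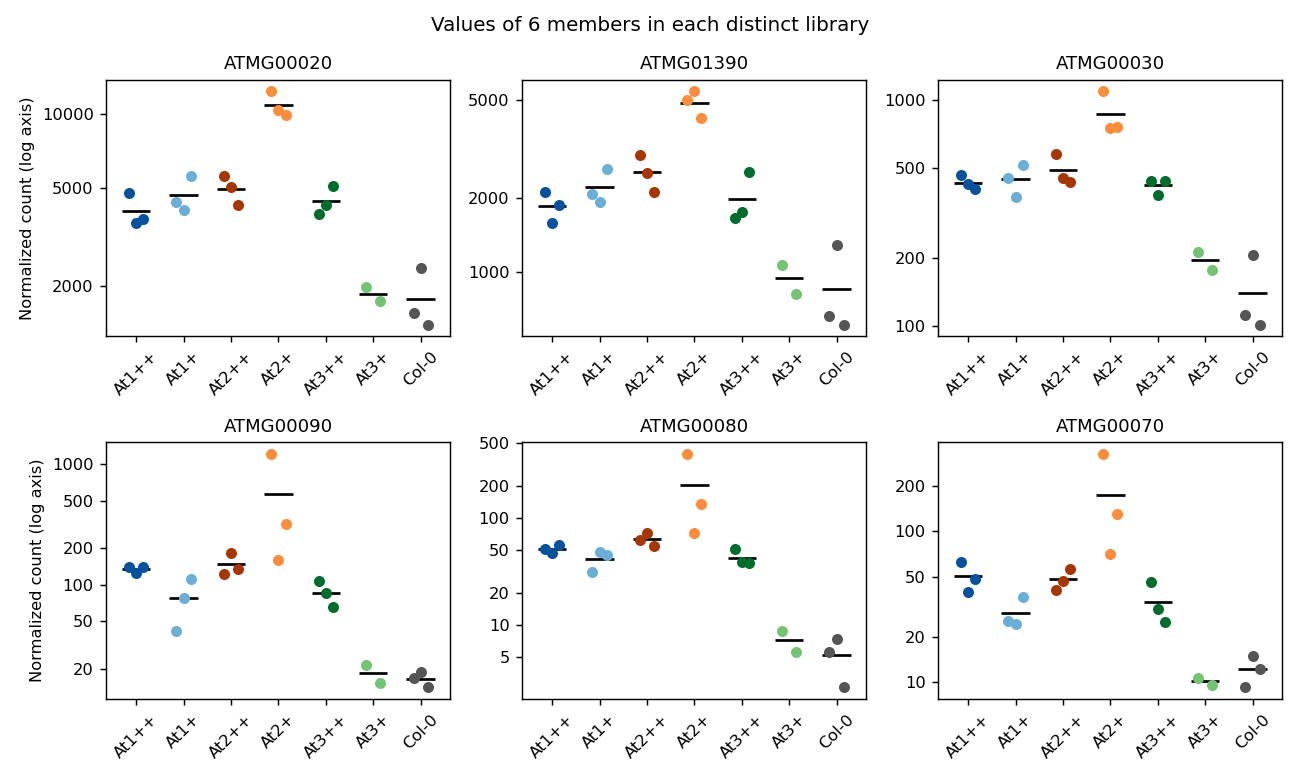
Values per distinct library (log axis) of the most abundant members and of those with the largest differences, by group; points are libraries and bars group means. ATMG00080 and ATMG00090 vary most among the At2+ libraries, where replicate 1 is the highest.

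The largest differences of all members belonged to ATMG00080 and ATMG00090, whose neighbouring identifier ATMG00070 behaved alike. ATMG00080 had 50.9, 46.8 and 56.4 (At1++) and 31.1, 48.5 and 45.5 (At1+) for over-expressors of AtIPCS1, 61.8, 72.9 and 54.7 (At2++) and 393, 71.8 and 136 (At2+) for over-expressors of AtIPCS2, and 50.97, 38.7 and 38.4 (At3++) and 8.91 and 5.59 (At3+) for over-expressors of AtIPCS3, against 5.56, 7.48 and 2.63 in Col-0. The log2 fold change was 3.15 (At1++), 2.84 (At1+), 3.44 (At2++), 4.75 (At2+) and 2.88 (At3++), the largest of the 37 members in each of these 5 lines, with limma adjusted p-values from 2.32e-10 to 2.92e-06. The At3+ libraries, at 8.91 and 5.59, overlapped with those of Col-0. Without At2+ replicate 1 the log2 fold change in At2+ was 4.09.

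ATMG00090 had 139.8, 126 and 141 (At1++) and 40.9, 77.2 and 112 (At1+) for over-expressors of AtIPCS1, 124, 184 and 134 (At2++) and 1215, 159 and 317 (At2+) for over-expressors of AtIPCS2, and 108, 84.8 and 64.7 (At3++) and 21.4 and 15.2 (At3+) for over-expressors of AtIPCS3, against 16.7, 18.7 and 14.05 in Col-0. The lowest library of the 5 lines other than At3+, at 40.9 in At1+, thus lay above the highest Col-0 library at 18.7. Within At2+, however, replicate 1 was far above replicates 2 and 3, and this was the widest spread of any member of mean at least 10 in any group, with an SD of 1.49 on the log2 scale against a median of 0.30 for such members in At2+. The log2 fold change in At2+ was 4.51 (SE 0.42, limma adjusted p = 4.16e-09). It was 3.70 without At2+ replicate 1 and 5.16 without At2+ replicate 2, called in both cases.

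ATMG00070 showed the same high replicate 1, with 324, 70.7 and 129 in At2+, against 9.27, 14.95 and 12.3 in Col-0. Group means were 50.3 ± 11.9 (At1++) and 28.8 ± 6.95 (At1+) for transformants of AtIPCS1, 48.1 ± 7.96 (At2++) and 175 ± 133 (At2+) for transformants of AtIPCS2, and 33.8 ± 10.8 (At3++) and 10.1 ± 0.776 (At3+) for transformants of AtIPCS3, against 12.2 ± 2.84 in Col-0 (SD, n = 3, or 2 for At3+). At2+ replicate 1 also had the highest ATCG share of its group, and without it the log2 fold change of ATMG00070 in At2+ was 2.90 in place of 3.48. Without that library, 24 members in place of 27 were called higher in At2+ than in Col-0.

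ATMG01360 and ATMG00650 varied less between replicates. ATMG01360 averaged 48.1 ± 9.99 (At1++) and 45.6 ± 3.42 (At1+) for transformants of AtIPCS1, 48.3 ± 5.17 (At2++) and 106 ± 22.8 (At2+) for transformants of AtIPCS2, and 45.3 ± 2.57 (At3++) and 15.1 ± 1.23 (At3+) for transformants of AtIPCS3, against 17.3 ± 5.19 in Col-0 (SD, n = 3, or 2 for At3+). The At1++, At1+, At2++ and At3++ libraries all fell between 41.1 and 59.5, above the highest Col-0 library at 22.4 and below the lowest At2+ library at 86.3. ATMG00650 had 49.98, 35.9 and 43.1 in At2+, against 6.49, 11.2 and 6.15 in Col-0, at 2.33 on the log2 scale there (limma adjusted p = 4.03e-07) and 1.25 to 1.45 in the other 4 lines that were called.

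Some members of similar abundance were called in fewer lines. ATMG00060 had 141, 71.8 and 86.3 in At2+, against 10.2, 19.6 and 19.3 in Col-0, and was called in At1+, At2+ and At3++, while in At1++ and At2++ it passed the adjusted p but reached only 0.92 and 0.83. ATMG00640 had 84.6, 69.5 and 98.5 in At2+, against 14.8, 28.04 and 14.05 in Col-0, and was called in At2+ alone, at 2.15 (limma adjusted p = 1.9e-07). In both genes the At2+ libraries lay above all others of the series.

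ATMG00510 averaged 55.5 ± 19.7 in At2+, against 8.76 ± 3.86 in Col-0 (SD, n = 3 each), and was called in At1++, At1+, At2+ and At3++. In At2++ it had 10.96, 14.6 and 17.3, a log2 fold change of 0.71 with an adjusted p of 0.0588. ATMG00660 and ATMG01120 were called in At2+ alone, with 39.7, 22.02 and 28.8 and 28.2, 12.7 and 27.7, against 10.2, 12.2 and 7.02 and 6.49, 6.54 and 7.90 in Col-0. ATMG01120 gave the lowest value of any member in At3+, -1.09 on the log2 scale, which did not pass the test (limma adjusted p = 0.126).

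ATMG00670 was the one member called in 4 lines whose mean was not highest in At2+. It had 11.2, 9.85 and 15.5 (At1++) and 7.78, 3.31 and 3.87 (At1+) for over-expressors of AtIPCS1, 10.96, 8.34 and 7.68 (At2++) and 7.69, 10.4 and 11.1 (At2+) for over-expressors of AtIPCS2, and 8.16, 9.42 and 10.8 (At3++) and 5.34 and 4.79 (At3+) for over-expressors of AtIPCS3, against 3.71, 5.61 and 1.76 in Col-0. The At1++ libraries were the highest on average, and the log2 fold change was 1.56 in At1++, 1.17 in At2++, 1.27 in At2+ and 1.24 in At3++.

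The 7 members with an annotated nuclear counterpart were all low. ATMG01320, for NADH dehydrogenase 2B, had 7.69, 6.95 and 15.5 in At2+, against 2.78, 1.87 and 0.878 in Col-0, which stood for 26 reads in At2+ and 6 reads in Col-0, and it was called in At2+ (adjusted p = 0.00084), At2++ (adjusted p = 0.0331) and At3++ (adjusted p = 0.0214) by limma, with at most 3 reads in any Col-0 library. DESeq2 called it in At2+ and not in At2++ or At3++. ATMG00560, whose counterpart is the OB-fold protein, had 10.3, 10.4 and 15.5 in At2+, against 0.927, 4.67 and 1.76 in Col-0, and was called in At2+ alone (log2 fold change 2.05, limma adjusted p = 0.00344). ATMG00960, for the cytochrome c assembly protein, was called in At2+ with 13 reads, against 5 reads in Col-0 (limma adjusted p = 0.0388), a call that leaving out At2+ replicate 1 or 3, or any Col-0 library, removed and that DESeq2 did not make. ATMG01330, ATMG01090, ATMG00970 and ATMG01220 were called in no line.

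The 17 tested genes with identifiers in the range of the chromosome 2 insertion (AT2G07600 to AT2G07835) were read beside the members, since 13 of them share over 50% of their 150-base windows with the mitochondrial genome. Of these 17, the number called higher than in Col-0, with the share of all genes beside it, was 4 (At1++; 4.06% of all genes) and 2 (At1+; 1.78% of all genes) for over-expressors of AtIPCS1, 1 (At2++; 5.90% of all genes) and 9 (At2+; 4.76% of all genes) for over-expressors of AtIPCS2, and 5 (At3++; 4.04% of all genes) and 0 (At3+; 0.594% of all genes) for over-expressors of AtIPCS3. The 17 include AT2G07642, AT2G07798 and AT2G07827, which average 0.968, 0.934 and 0.498 outside At2+, and 7 of the 14 others were called in At2+. AT2G07698, annotated as an ATPase F1 alpha subunit, averaged 14.7 ± 4.35 (At1++) and 29.4 ± 6.54 (At1+) for over-expressors of AtIPCS1, 27.5 ± 6.43 (At2++) and 50.7 ± 26.1 (At2+) for over-expressors of AtIPCS2, and 16.4 ± 3.52 (At3++) and 8.63 ± 5.43 (At3+) for over-expressors of AtIPCS3, against 4.85 ± 2.60 in Col-0 (SD, n = 3, or 2 for At3+), and 94.0% of its windows occur in the mitochondrial genome. AT2G07727, annotated as cytochrome b, averaged 19.8 ± 4.43 in At2+, against 1.83 ± 0.941 in Col-0 (SD, n = 3 each), with all of its windows shared. AT2G07715, the counterpart of ATMG00560, averaged 20.9 ± 5.59 in At2+, against 11.3 ± 2.56 in Col-0, and was not called. ABCC13 and MCM5, whose identifiers fall in the same range but which share no window, were called in no line. From which genome the reads on these rows came was not tested.

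Lines labelled as stronger and weaker for the same gene were then compared. For AtIPCS1 the members hardly differed: 2 were called higher in At1++ than in At1+, where 5.63% of all genes were called higher, and none lower, where 5.44% were. These were ATMG00670, at 1.19 on the log2 scale (limma adjusted p = 0.00715), and ATMG01130, with 1.12 (adjusted p = 0.0334), which was 0.50 and not called without At1+ replicate 3. The median of the members was 0.19, and 1 member was lower at an unadjusted p under 0.05. The libraries of 4 members lay wholly above and of 1 wholly below those of At1+, against 28.4% and 28.0% of all genes.

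For AtIPCS2 the members were lower in At2++ than in At2+, by their labels. Of the 37, 14 were called lower, where 2.57% of all genes were called lower, and none was called higher, where 1.11% were. By limma 1 member was higher at an unadjusted p under 0.05, and DESeq2 and edgeR called 13 lower and 0 higher. The libraries of 25 members did not overlap, all in that direction, against 15.7% of all genes below and 15.7% above, and the median log2 fold change was -1.13. ATMG00020 had 5554, 5027 and 4256 in At2++, against 12311, 10324 and 9896 in At2+, or -1.13 on the log2 scale (SE 0.15, limma adjusted p = 5.97e-06). Among the largest were ATMG00510 at -1.85 (limma adjusted p = 0.000113), ATMG00060 at -1.70 (adjusted p = 4.2e-05) and ATMG00640 at -1.53 (adjusted p = 9.6e-05). Much of this count rested on At2+ replicate 1, since without it 6 members were called lower and 1 higher. ATMG00070, ATMG00080 and ATMG00090 were among the 14, at -1.57, -1.31 and -1.44, and without that library they were at -0.99, -0.65 and -0.63 and not called. ATMG01020, which reached the minimum through At2+, is also among the 14. Both it and ATMG00830, which reached the minimum in the same way, are among the 25 members without overlap. AtIPCS2 transcript itself was higher in the libraries labelled At2+, so no direction by transgene level is drawn.

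For AtIPCS3, 13 members were called higher in At3++ than in At3+, by their labels, where 2.94% of all genes were called higher, and none was called lower, where 0.774% were and where no member was lower at an unadjusted limma p under 0.05. DESeq2 and edgeR called 13 higher and 0 lower. All 3 At3++ libraries exceeded both At3+ libraries in 23 members, against 26.6% of all genes above and 26.5% below, and the median log2 fold change was 1.00. ATMG00080 had 50.97, 38.7 and 38.4 in At3++, against 8.91 and 5.59 in At3+, or 2.42 on the log2 scale (limma adjusted p = 0.000142). ATMG00060 was at 1.93 (limma adjusted p = 2.51e-05) and ATMG01360 at 1.52 (adjusted p = 2e-05). Leaving out At3+ replicate 3, which leaves 1 distinct At3+ library that is assumed to vary like the other groups, gave 8 calls, and as with AtIPCS2 the transcript of the introduced gene was higher in the line labelled with the single plus.

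The libraries labelled At2+ were also set against each remaining line, a comparison chosen after their values were seen. The members include ATMG00830 and ATMG01020, which reached the minimum through the At2+ libraries, and counts without them were not made here. Of the members, 14 were called higher in At2+ than in At1++ (4.38% of all genes), 23 than in At1+ (6.96%), 17 than in At3++ (0.837%) and 28 than in At3+ (3.74%), and none was called lower by limma, DESeq2 or edgeR, where 2.32%, 3.37%, 0.945% and 1.45% of all genes were called lower by limma. At an unadjusted limma p under 0.05, 1 member was lower, in the comparison with At3++. Without At2+ replicate 1 these counts were 5 for At1++, 17 for At1+ and 11 for At3++, where 1 member was then called lower. ATMG01380 was an exception in direction, at -0.61 against At1++, -0.77 against At1+ and -1.71 against At3++. Its values in At2+ were 6.41, 0 and 0, or 5 reads in all, so its direction is uncertain.

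Nuclear genes for mitochondrial proteins were read beside the members. In a list of 28 nuclear genes for subunits of the respiratory complexes and the ATP synthase and for cytochrome c, none was called in any line by limma, DESeq2 or edgeR. At an adjusted limma p under 0.05 without a minimum on the fold change, the number that was higher was 20 (At1++; 19.8% of all genes) and 3 (At1+; 14.4% of all genes) for lines over-expressing AtIPCS1, 25 (At2++; 25.8% of all genes) and 19 (At2+; 22.6% of all genes) for lines over-expressing AtIPCS2, and 18 (At3++; 20.4% of all genes) and 1 (At3+; 4.94% of all genes) for lines over-expressing AtIPCS3. By the same rule 3 were lower in At1+ (13.2% of all genes) and 1 in At3+ (4.37%), and none in the other lines, where 19.0% (At1++), 26.2% (At2++), 21.5% (At2+) and 18.1% (At3++) of all genes were lower. At an unadjusted p under 0.05 the number higher was 23 (At1++) and 3 (At1+) for transformants of AtIPCS1, 25 (At2++) and 20 (At2+) for transformants of AtIPCS2, and 19 (At3++) and 1 (At3+) for transformants of AtIPCS3, and 4 were lower in At1+ and 1 in At3+. The median log2 fold change of this list was 0.30 (At1++) and 0.02 (At1+) for lines over-expressing AtIPCS1, 0.40 (At2++) and 0.34 (At2+) for lines over-expressing AtIPCS2, and 0.20 (At3++) and 0.02 (At3+) for lines over-expressing AtIPCS3.

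Alternative oxidases and external NAD(P)H dehydrogenases, nuclear genes of the bypass of the respiratory chain, and genes known to respond to mitochondrial stress were read as 1 list. Of 10 tested, limma called 3 higher in At1++ (4.06% of all genes), 2 in At2++ (5.90%), 1 in At2+ (4.76%) and 1 in At3++ (4.04%). DESeq2 called 2, 3, 1 and 0 higher in the same order of lines, and edgeR, which kept 7 of the genes, called 1, 2, 0 and 0. With so few genes, whether the list stood out from all genes cannot be read from these counts. In each of these 4 lines 1 was called lower (5.02%, 4.91%, 2.69% and 2.31% of all genes), and none was called in At1+ or At3+, where DESeq2 and edgeR called 0 as well and 1 gene in each line was higher at an unadjusted limma p under 0.05. AOX1D, an alternative oxidase, averaged 1.46 ± 0.980 in At1++ and 7.02 ± 1.62 in At2+ and was at 0 in all At2++ libraries, against 19.5 ± 4.16 in Col-0 (SD, n = 3 each), and was called lower in the 3 lines. AOX1A, the stress-inducible alternative oxidase, averaged 385 ± 11.1 in At2+, against 424 ± 16.3 in Col-0, and was not called. In the same list AT5G09570 averaged 10.5 ± 5.21 in At1++ and 7.03 ± 0.672 in At2+, against 0.932 ± 0.935 in Col-0. AT5G51440 averaged 145 ± 41.6 in At2++, against 32.3 ± 4.98 in Col-0. BCS1 and AT2G21640 went the other way in At2+, with 74.6 ± 16.6 and 27.9 ± 8.06, against 122 ± 13.7 and 43.2 ± 7.01 in Col-0. NDB4, an external NAD(P)H dehydrogenase, was called higher in At1++ (log2 fold change 1.97, adjusted p = 0.00778) and At2++ (2.46, adjusted p = 0.000824) by limma.

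Of the nuclear genes for transcription and decay of mitochondrial RNA, MGP3 (AT1G68990), a phage-type RNA polymerase, averaged 260.1 ± 27.5 (At1++) and 289 ± 21.4 (At1+) for transformants of AtIPCS1, 265 ± 44.9 (At2++) and 281 ± 2.82 (At2+) for transformants of AtIPCS2, and 292 ± 12.01 (At3++) and 335 ± 36.9 (At3+) for transformants of AtIPCS3, against 379 ± 11.7 in Col-0 (SD, n = 3, or 2 for At3+). It was lower at an adjusted limma p under 0.05 in the 5 lines other than At3+, by less than 2-fold, and so was AT5G15700, another RNA polymerase of this type. AT5G14580, a polyribonucleotide nucleotidyltransferase, an enzyme that degrades RNA from its 3′ end, was called higher in At2++ with 185 ± 16.03, against 78.4 ± 6.17 in Col-0 (SD, n = 3 each; log2 fold change 1.23, limma adjusted p = 7.94e-09). In At2+ it averaged 143 ± 7.38, a log2 fold change of 0.86, which did not reach the minimum. In At1+ it was lower, with 62.2 ± 5.29, or -0.33 on the log2 scale (limma adjusted p = 0.0495), so that all 3 genes of this list were lower there at an adjusted p under 0.05.

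Markers of organs moved in some of the same lines. Of 9 tested leaf genes (Rubisco small subunits and chlorophyll a/b-binding proteins), 2 were called higher in At1++ (4.06% of all genes), 4 in At2++ (5.90%), 4 in At2+ (4.76%) and 3 in At3++ (4.04%). In At1+ (1.96% of all genes) and in At3+ (1.18%) 1 was called lower. Of 6 root genes, 3 were called higher and 1 lower in At1++, At2++, At2+ and At3++, and none in At1+ or At3+. Of all genes, 5.02% (At1++), 4.91% (At2++), 2.69% (At2+) and 2.31% (At3++) were called lower. Whether these few markers stood out from all genes was not tested. No leaf or root marker was at 0 in a whole group. The summed leaf value per library was 777608 to 944359.5 (At1++) and 603323 to 716351 (At1+) for over-expressors of AtIPCS1, 973396 to 1313489 (At2++) and 939619.8 to 1203383 (At2+) for over-expressors of AtIPCS2, and 740774 to 894614 (At3++) and 643241 to 649580.4 (At3+) for over-expressors of AtIPCS3, against 553139 to 623104 in Col-0. The summed root value was 31210.00 to 32721 (At1++) and 25428 to 29273 (At1+) for transformants of AtIPCS1, 37499 to 40825 (At2++) and 39246 to 39661 (At2+) for transformants of AtIPCS2, and 44507 to 46490.3 (At3++) and 27221 to 29460.2 (At3+) for transformants of AtIPCS3, against 22539 to 22897 in Col-0. Nearly all of this sum came from PYK10, which averaged 44871.6 in At3++ and 21583.5 in Col-0. The next most abundant root gene, TIP2;3, was the 1 called lower in At1++, At2++, At2+ and At3++. The sum therefore mainly describes PYK10 and does not show a common rise of the root genes. The seed markers given above were highest in At1++, whereas the mitochondrial share was highest in At2+. Their part in the mitochondrial values was not tested.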

How the data were processed

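RNA-seq libraries were made from total RNA with the TruSeq Stranded mRNA kit and sequenced as single-end reads of 150 bases. The deposited table holds a normalised signal per gene and library: by their methods and submission notes the authors had cleaned reads in Trimmomatic, placed them on the Araport genome by STAR, counted them per gene with HTSeq and divided the counts by DESeq size factors, with versions not given in the sources used here. Every value was a whole multiple of the value of 1 read within a tolerance of 0.02 (100% of values in each library), so whole reads were recovered for the count tests and for depth. How reads that match more than 1 place were counted is not given in the sources used here.

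The main test was limma 3.58.1 (R 4.3.3), with trend, on log2(value + 1) for the 22222 genes averaging at least 1 over the 20 distinct libraries, with all 7 groups in 1 fit and Benjamini-Hochberg adjustment over all genes. Other settings tried were a pseudocount of 0.1, other filters and fold minimums, scaling on nuclear genes, only the libraries compared, identical libraries counted apart, a replicate block, each library left out, and DESeq2 1.42.0 and edgeR 4.0.16 on the recovered reads. DESeq2 called 13 (At1++) and 10 (At1+) for lines over-expressing AtIPCS1, 10 (At2++) and 24 (At2+) for lines over-expressing AtIPCS2, and 13 (At3++) and 0 (At3+) for lines over-expressing AtIPCS3 of the ATMG rows higher than in Col-0, and edgeR, on the 21 members that passed its own filter, called 14 (At1++) and 10 (At1+) for over-expressors of AtIPCS1, 12 (At2++) and 21 (At2+) for over-expressors of AtIPCS2, and 14 (At3++) and 0 (At3+) for over-expressors of AtIPCS3. On data simulated for At2+ against Col-0 (22221 genes), limma called 100 of 100 genes changed 4-fold and 3 unchanged genes, and 94 of 100 genes changed 2-fold passed the adjusted p, without the minimum on the fold change. The changed genes were drawn from genes averaging at least 20, with 1 fixed setting of the spread for all genes. The simulation therefore does not show how well changes of low or widely spread members are found. Shares of summed values were compared by exact permutation tests.

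Genes named in the text are the members that the reference annotates, the 5 other members with the highest mean and the 5 with the largest median change, and called genes of the lists. ATMG00060, ATMG00510, ATMG00516, ATMG00640, ATMG00650, ATMG00660, ATMG00670, ATMG00830, ATMG01020, ATMG01120, ATMG01130, ATMG01380 and the genes of the lists that were not called were named after their values were seen. Members and lists were chosen with earlier results of these data known. The sequences and the windows come from RefSeq TAIR10.1 and were read by coordinate there only, not in the files' build.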

Additional observations from a re-analysis of the deposited data

Results flagged for a closer look

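The difference between the paired lines was not the same for the 3 introduced genes. In the limma fit, the change between the libraries labelled At2++ and At2+ minus that between At1++ and At1+ was called for 11 of the 37 members, all below 0, where 3.71% of all genes were called below and 3.03% above 0. The same change for AtIPCS2 minus the change between the libraries labelled At3++ and At3+ was called for 19 members, all below 0, where 4.16% of all genes were called below and 1.23% above 0. For AtIPCS1 minus AtIPCS3 it was called for 7 members, all below 0, where 5.30% of all genes were called below and 2.62% above 0.

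The largest of these differences between AtIPCS2 and AtIPCS3 were -3.73 on the log2 scale for ATMG00080 (SE 0.57, limma adjusted p = 3.23e-05), -3.63 for ATMG00060 (SE 0.40, limma adjusted p = 2.84e-07) and -3.60 for ATMG00090 (SE 0.64, limma adjusted p = 0.00019). Between AtIPCS2 and AtIPCS1 the largest that was called was -2.36, for ATMG00090 (limma adjusted p = 0.00438) and for ATMG00070 (limma adjusted p = 0.000732). For ATMG00070, ATMG00080 and ATMG00090 these sizes rest in part on At2+ replicate 1. Without it their log2 fold changes in At2++ against At2+ were -0.99, -0.65 and -0.63, and none of these was called. When each library was left out in turn, the counts ran from 8 to 13, where 1 member was also called above 0 without At2+ replicate 1, from 16 to 20, and from 5 to 9. The transcripts of AtIPCS2 and AtIPCS3 were higher in the line labelled with the single plus, so these differences hold for the labels and not for an order of transgene level.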

How the results depend on the processing

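The count of members called stayed within 1.5 times its value in 149 recalculations and left it in 14, and among recalculated differences of the 14 genes named by rule 742 kept direction and call and 34 kept only the direction. Requiring a mean of at least 10 left 16 genes, all called in At2+ and by the F-test over 7 groups, of which 14 had that mean without the At2+ libraries. Taking the mean of at least 1 without the line itself, an alternative chosen after seeing the data, gave 25 calls in At2+ and left the counts of the other lines as they were. For At1++ against At1+ the count of 2 became 4 without a filter, 0 with a mean of at least 10, and 1 with only the libraries compared, 1 with DESeq2 and 1 with edgeR. Counting the identical At3+ libraries apart gave 1 call in At3+ against Col-0. The ratio of the ATMG share of At3+ to Col-0 fell below 1, to 0.828, without the 3 highest rows, an alternative chosen after seeing the data. A sum without ribosomal RNA genes was not run, because the annotation used here does not tie ATMG identifiers to them.

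Leaving out single libraries, the counts of calls ran from 12 to 15 in At1++, 8 to 12 in At1+, 10 to 14 in At2++, 23 to 27 in At2+, 11 to 15 in At3++ and 0 to 1 in At3+ (1 without Col-0 replicate 1), from 1 to 3 for At1++ against At1+, from 7 to 14 for At2++ against At2+ (7 without At2+ replicate 1) and from 8 to 13 for At3++ against At3+ (8 without At3+ replicate 3). The At3+ share ratio ran from 0.942 to 1.28, with 0.968 without At3+ replicate 1, 0.971 without Col-0 replicate 1 and 0.942 without Col-0 replicate 3. The replicate block left 27 calls in At2+ against Col-0 and 14 in At2++ against At2+. The numbers share no pairing in the data: over 45 pairs of same-numbered libraries the correlation of deviations was -0.12 to 0.14, and 0 of 18 libraries correlated best with their own number. Col-0 reads were fewest for the 12 members that had at most 3 in every Col-0 library.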
